A study of Bos taurus with 6 samples.

Results

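Fatty acid oxidation in mitochondria and peroxisomes was followed through 30 named genes: the enzymes and carriers that shorten fatty acids, the receptors PPARA and PPARD that switch many of these genes on, and the receptor targets PDK4 and ANGPTL4. The members were found by gene symbol in the deposited count table. It held 29 of them among 28200 rows, each on a single row, and ETFB was not analysed here. The cells were primary mammary epithelial cells of Holstein cattle. There were 3 KLF6 knockout libraries, from cells in which the gene for this zinc-finger transcription factor was disrupted with CRISPR/Cas9, and 3 libraries of wild-type cells. No drug, time point or animal age is named in the labels, and no further allele or agent is given for either genotype. Whether the 3 libraries of each genotype go back to separate cultures, animals or edited clones is not in the labels, so p-values cover only the variation among these libraries, which may be technical.

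Long-chain fatty acids enter the mitochondrial matrix as carnitine esters, and each turn of the cycle there uses an acyl-CoA dehydrogenase, a hydratase, a hydroxyacyl-CoA dehydrogenase and a thiolase to release acetyl-CoA. The dehydrogenases pass their electrons to the respiratory chain through the electron transfer flavoprotein. Peroxisomes run a parallel cycle on very long and branched chains, in which an oxidase takes the place of the dehydrogenase. In the mammary gland fatty acids are mainly known as building material for milk fat, and oxidation competes with that use.

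Total counts per library lay between 17512892 and 18724879. Levels are given as CPM (counts per 1000000 of the TMM-scaled library) and fold changes as log2 of knockout over wild type ± SE, with n = 3 libraries per genotype throughout. A gene is said to have risen or fallen when edgeR's quasi-likelihood test gave a Benjamini-Hochberg adjusted p of at most 0.05 over all 13390 genes tested. KLF6, the targeted gene, stood at 224, 230 and 217 CPM in the knockout libraries and at 503, 496 and 558 CPM in wild type (log2 change -1.21 ± 0.05), so RNA of the gene was still read in the knockout. Wild-type replicate 3 stood apart from the other wild-type libraries (9.30 and 9.49 times the variance that counting alone gives, with 2.30 to 3.01 for the other pairs of a genotype). The epithelial markers EPCAM, CDH1, KRT8, KRT18 and KRT5 were read in all libraries. The summed CPM of 6 luminal markers was 3934 to 4091 in the knockout and 10871 to 12203 in wild type, with 4 that fell and 0 that rose. For 5 basal markers the sum was 2565 to 2636 against 5086 to 5166, with 3 that fell and 1 that rose. For 7 fibroblast markers it was 245 to 258 against 1054 to 1250 CPM, with 4 that fell and 1 that rose. DCN made up most of that sum, at 229 ± 6.27 CPM in the knockout and 1134 ± 106 CPM in wild type. The marker that rose, COL1A2, had 0 counts in every wild-type library and 93, 84 and 101 counts in the knockout. VIM did not pass the test. Of 5 adipocyte markers (6.08 to 8.58 against 2.77 to 3.61 CPM) 1 rose and 0 fell, and of 5 leukocyte markers (4.88 to 5.71 against 4.23 to 4.97 CPM) 1 rose and 0 fell. Of 5 endothelial markers (30.8 to 32.6 against 4.5 to 5.79 CPM) 2 fell, VWF and TEK, and 1 rose, PECAM1, which went from 0.22 ± 0.09 to 31.3 ± 0.89 CPM and made up nearly the whole knockout sum. ADIPOQ, KDR and PTPRC had 0 counts. The part of these marker differences in the results was not tested, and in bulk RNA fewer cells of a type and less RNA per cell cannot be told apart.

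Most members had less RNA in the knockout libraries. All 29 passed the filter on low counts. Of these, 18 fell, 7 rose and 4 did not pass the test. The share called was 86.2% of the members, while 74.6% of all genes tested were called. Members that fell made up 62.1%, against 37.6% of all genes tested, and members that rose 24.1%, against 37.1%. The median log2 change of the members was -0.41, and that of all genes tested was -0.01. Of the 29 members tested, 14 were called with at least a 1.5-fold change, while 41.5% of all genes tested were. Of the same 29, 4 rose that far, while 20.1% of all genes tested did. Another 10 of the 29 fell that far, while 21.5% of all genes tested did. At least a 2-fold change was seen for 6 members (20.7%) and for 22.3% of all genes tested. For 25 of the 29 members the knockout and wild-type libraries did not overlap in CPM, which also held for 76.2% of all genes tested.

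**Figure D1:**
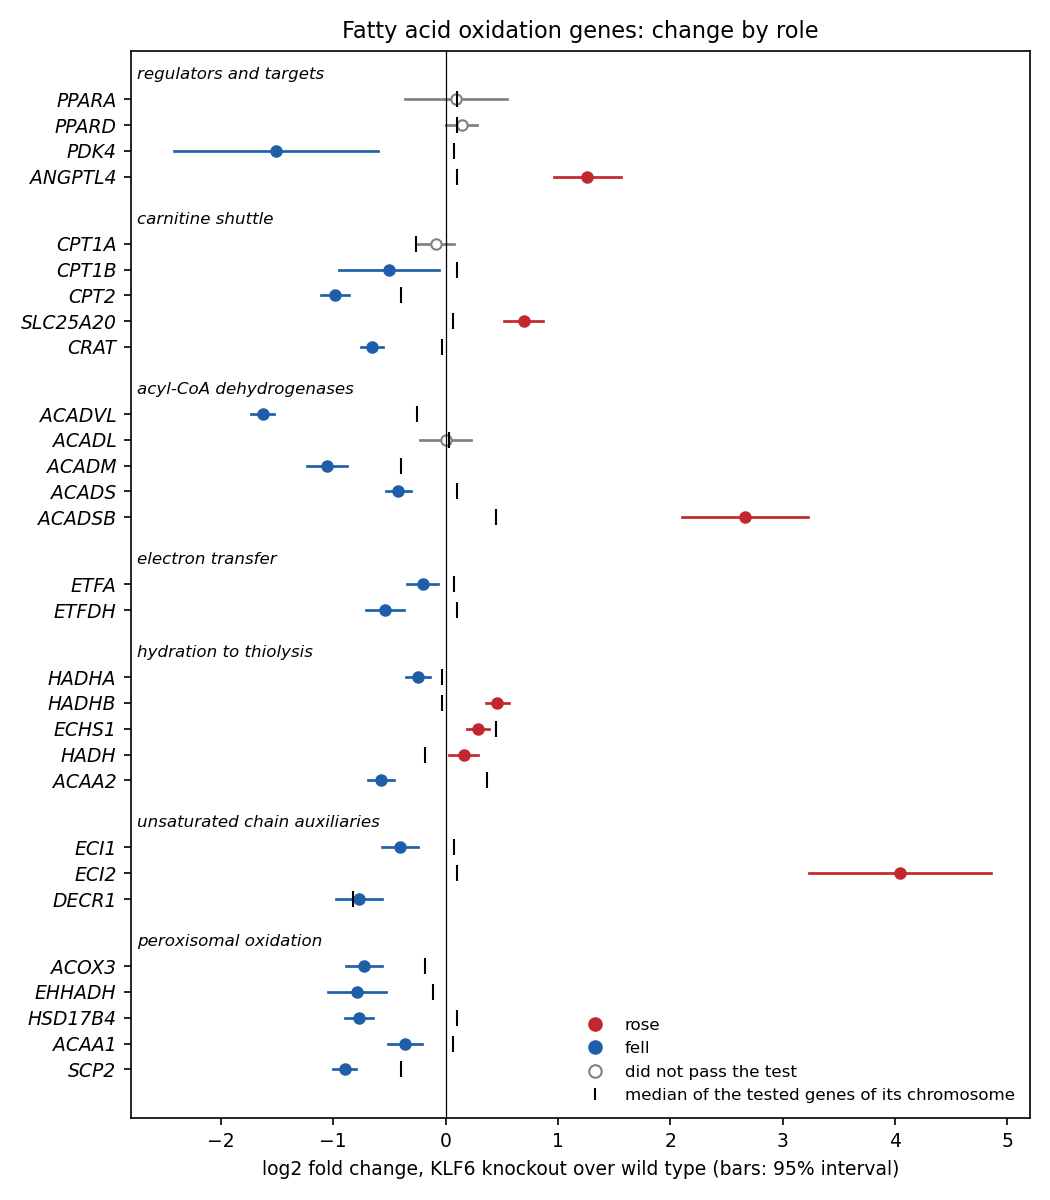
Log2 change, knockout over wild type, for the 29 members (x axis), grouped by role (y axis). Points are fitted values, bars are 95% intervals, and a vertical tick marks the median change of all tested genes on the member's chromosome. The 5 genes grouped under peroxisomal oxidation all lie to the left of 0 and fell, while 37.6% of all genes tested fell. ECI2, found in peroxisomes and mitochondria but grouped with the unsaturated chain auxiliaries, and ACADSB lie farthest to the right.

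Neither receptor gene passed the test. PPARA encodes the fatty acid-sensing receptor best known for driving oxidation genes in liver. It was read at 2.30, 3.10 and 3.34 CPM in the knockout and at 2.20, 2.68 and 3.33 CPM in wild type, and the libraries overlapped. The log2 change of PPARA was 0.09 ± 0.22 (edgeR adjusted p = 0.718), with a 95% interval from 0.777-fold to 1.46-fold. PPARD, the more widely expressed receptor, stood at 41.5 ± 1.8 CPM (SD) in the knockout and 37.6 ± 1.46 CPM in wild type. Its log2 change of 0.14 ± 0.07 did not pass the test (edgeR adjusted p = 0.0571). It did pass when wild-type replicate 1 was left out (0.18, adjusted p = 0.0432) or DESeq2-type size factors were used in edgeR (0.16, adjusted p = 0.0393), with adjusted p-values from 0.0393 to 0.202 over its 13 alternatives.

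The receptor targets moved in opposite directions. ANGPTL4, a secreted inhibitor of lipoprotein lipase, was at 12.1, 11.7 and 12.6 CPM in the knockout libraries and at 5.53, 5.84 and 3.77 CPM in wild type. It rose 2.40-fold (log2 1.26 ± 0.14, edgeR adjusted p = 2.68e-07), and every knockout library lay above every wild-type library. PDK4, a kinase that turns off pyruvate dehydrogenase and so spares glucose, was rare. It had 3, 7 and 5 counts in the knockout and 17, 14 and 13 counts in wild type. PDK4 fell 2.84-fold (log2 -1.51 ± 0.43, edgeR adjusted p = 0.00437), and its 95% interval was wide, from a log2 change of -2.42 to -0.60.

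In the carnitine shuttle the main entry enzyme did not pass the test, while the later carriers fell or rose. CPT1A, the outer-membrane transferase that commits long chains to oxidation, was at 21.4, 23.0 and 21.3 CPM in the knockout and 22.1, 23.4 and 24.2 CPM in wild type. The libraries overlapped, and the log2 change of -0.09 ± 0.08 did not pass the test (edgeR adjusted p = 0.330). The 95% interval ran from 0.840-fold to 1.06-fold. CPT1B, the muscle isoform, was low in both genotypes, at 2.06 ± 0.39 and 2.93 ± 0.19 CPM, and fell by 0.50 ± 0.21 on the log2 scale (edgeR adjusted p = 0.0398). That call was lost without knockout replicate 1 (adjusted p = 0.0546), knockout replicate 3 (0.186), wild-type replicate 1 (0.101) or wild-type replicate 2 (0.0792), by DESeq2 (0.160) and with no filter on low counts (0.0508), within a range of 0.0253 to 0.186 over 13 alternatives. CPT1B also overlaps CHKB, which held 7644 counts against 271 for CPT1B, by 297 bases on the same strand.

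CPT2 (chromosome 3, 93032987 to 93057118), the inner-membrane transferase that frees the acyl-CoA in the matrix, stood at 53.3, 54.4 and 49.8 CPM in the knockout and at 109, 107 and 95.5 CPM in wild type. It fell 1.98-fold (log2 -0.98 ± 0.06, edgeR adjusted p = 6.31e-11), with no overlap between the genotypes. SLC25A20, the translocase that carries acylcarnitines across the inner membrane, went the other way. It was at 25.1, 24.3 and 24.7 CPM in the knockout and 15.8, 14.4 and 15.6 CPM in wild type, a 1.62-fold rise (log2 0.69 ± 0.08, edgeR adjusted p = 3.84e-07). CRAT, which moves acetyl groups between carnitine and CoA, was at 98.5, 92.6 and 95.1 CPM in the knockout and 150.2, 146.8 and 153.7 CPM in wild type, and fell 1.57-fold (log2 -0.65 ± 0.05, edgeR adjusted p = 6.18e-10). Within a library, CPT2 had 2.13 ± 0.11 counts per count of SLC25A20 in the knockout and 6.82 ± 0.64 in wild type.

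**Figure D2:**
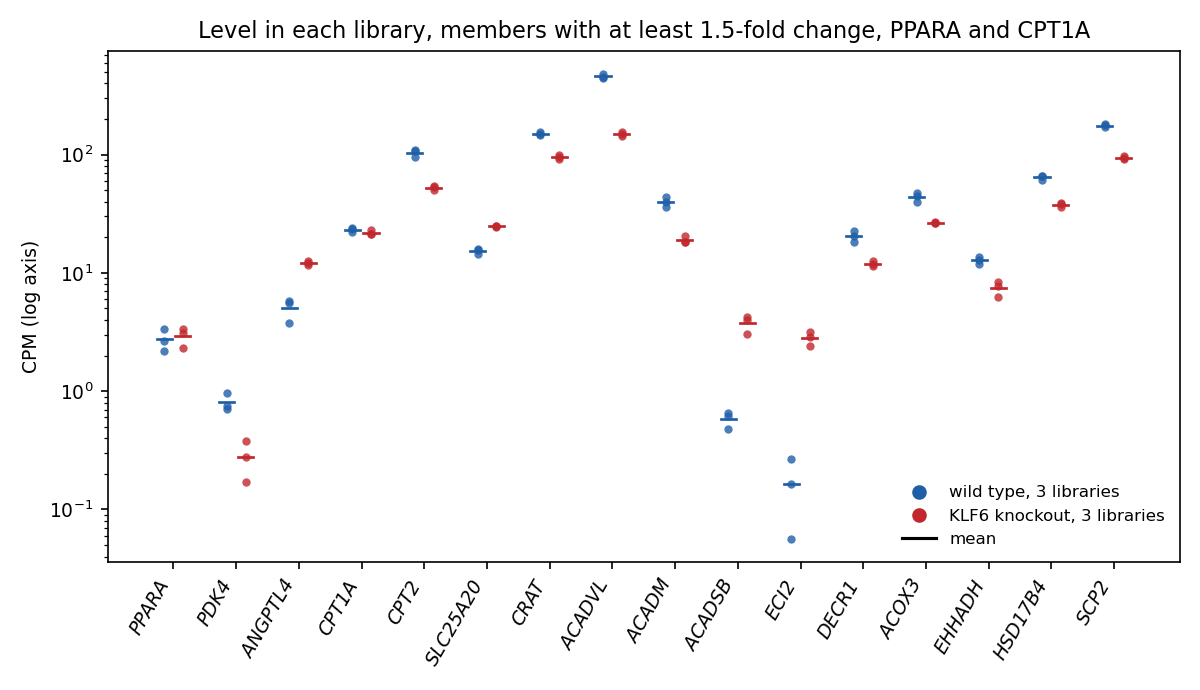
CPM of single libraries (y axis, log scale) for the 14 members that changed at least 1.5-fold, and for PPARA and CPT1A (x axis). Points are libraries and lines are means of 3 libraries. The genotypes overlap for PPARA and CPT1A and are separate for the other 14 genes.

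Among the dehydrogenase genes ACADVL fell farthest (chromosome 19, 26934465 to 26940043). It encodes the very-long-chain acyl-CoA dehydrogenase of the inner membrane. ACADVL was at 148, 143 and 156 CPM in the knockout libraries and at 456, 447 and 480 CPM in wild type, with a wide gap between the genotypes. The fall was 3.09-fold (log2 -1.63 ± 0.05, edgeR adjusted p = 1.93e-15). ACADM (chromosome 3, 69086075 to 69124464), the medium-chain enzyme, was at 20.6, 18.4 and 18.3 CPM in the knockout and 39.7, 43.7 and 36.0 CPM in wild type. It fell 2.08-fold (log2 -1.06 ± 0.08, edgeR adjusted p = 2.44e-09). ACADS, the short-chain enzyme, fell less, from 80.6 ± 3.19 to 60.3 ± 0.66 CPM (log2 -0.42 ± 0.05).

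The long-chain enzyme gene ACADL was at 11.6 ± 1.10 CPM in the knockout and 11.6 ± 0.59 CPM in wild type. Its log2 change was 0.00 ± 0.11 (edgeR adjusted p = 0.999), with a 95% interval from 0.856-fold to 1.17-fold. ACADSB (chromosome 26, 42805983 to 42855916), which acts on short branched chains from isoleucine, went the other way. It had 53, 78 and 71 counts in the knockout and 11, 9 and 12 counts in wild type, or 3.04, 4.24 and 3.96 CPM against 0.62, 0.48 and 0.66 CPM. ACADSB rose 6.35-fold (log2 2.67 ± 0.26, edgeR adjusted p = 4.68e-08), and every knockout library lay above every wild-type library.

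Per length of the gene model, the mix of dehydrogenase RNAs changed along with the amount. ACADVL made up 74.1%, 72.9% and 76.3% of the summed CPM per kilobase of the 5 dehydrogenase genes in wild type, and 56.8%, 55.1% and 57.7% in knockout. The share of ACADS was 15.3 ± 0.80% in wild type and 26.8 ± 0.72% in knockout, that of ACADL 2.70 ± 0.17% and 6.34 ± 0.61%, and that of ACADM 7.45 ± 0.80% and 8.40 ± 0.66%. ACADSB remained the smallest part, at 0.13 ± 0.02% and 1.89 ± 0.32%. These shares follow from the levels given above and add no separate test. As summed CPM, the dehydrogenase genes stood at 244 ± 5.90 in the knockout and 594 ± 9.66 in wild type, or 41.1% of the wild-type sum. Without ACADVL the other 4 dehydrogenase genes summed to 94.7 ± 1.22 CPM in the knockout and 133 ± 7.35 CPM in wild type, or 71.4%.

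**Figure D3:**
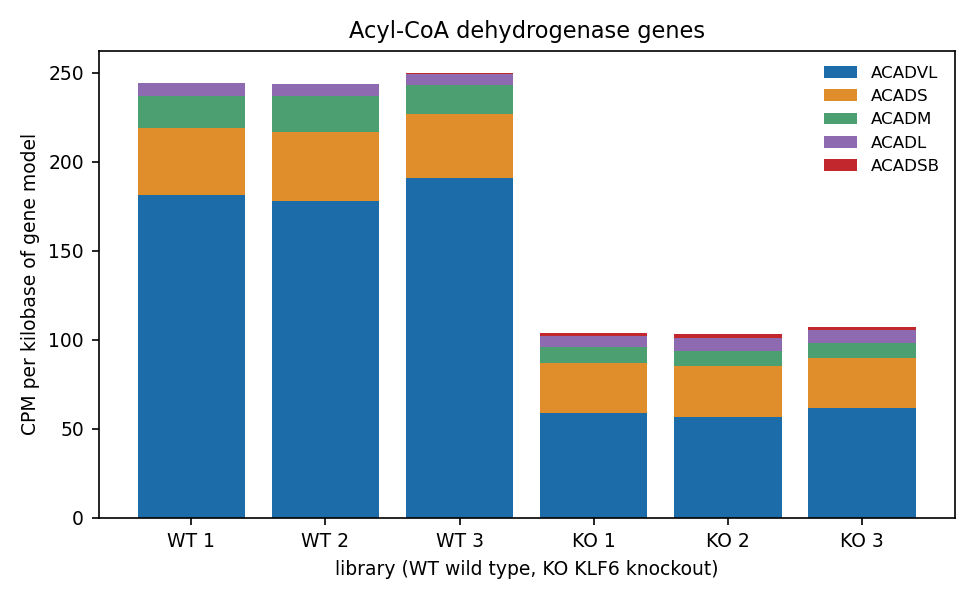
CPM per kilobase of gene model (y axis) of the 5 acyl-CoA dehydrogenase genes, stacked, in each library (x axis). The knockout bars are shorter, mainly through ACADVL, whose mean went from 183 to 59.2 CPM per kilobase.

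The electron carriers behind these enzymes fell modestly. ETFA, a subunit of the electron transfer flavoprotein, stood at 42.0 ± 2.84 CPM in the knockout and 48.5 ± 1.29 CPM in wild type (log2 -0.20 ± 0.07, edgeR adjusted p = 0.00901). Without knockout replicate 3 its log2 change was -0.17 and no longer passed the test (adjusted p = 0.0569), with a range of 0.00196 to 0.0569 over 13 alternatives. ETFDH, which hands the electrons to ubiquinone, was at 18.9 ± 1.28 CPM in the knockout and 27.4 ± 1.19 CPM in wild type (log2 -0.54 ± 0.08, edgeR adjusted p = 9.38e-06). It overlaps PPID by 7288 bases and C17H4orf46 by 235 bases, both on the other strand. PPID held 7632 counts in all and C17H4orf46 held 1638, against 2511 for ETFDH. Both of these neighbours rose (log2 0.33 and 0.31), and the sources used here do not give the strand setting of the counting.

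The later steps of the mitochondrial cycle were split. HADHA and HADHB encode the α and β subunits of the trifunctional protein, a single complex that carries out the hydratase, dehydrogenase and thiolase steps on long chains. The genes lie head to head on chromosome 11, HADHB at 73226234 to 73256305 on the minus strand and HADHA at 73256623 to 73298910 on the plus strand, with 317 bases between them. Both were singled out for values in every library after these were seen.

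HADHA was at 109, 106 and 108 CPM in the knockout and at 129, 134 and 119 CPM in wild type, and fell (log2 -0.24 ± 0.05, edgeR adjusted p = 3.42e-04). HADHB was at 114, 116 and 115 CPM in the knockout and 84.6, 85.6 and 80.9 CPM in wild type, and rose (log2 0.46 ± 0.05, edgeR adjusted p = 8.95e-08). For both genes the libraries of the genotypes did not overlap. The count ratio of HADHA to HADHB, which no scaling between libraries can move, was 0.96, 0.91 and 0.93 in the knockout libraries and 1.53, 1.57 and 1.47 in wild type. An exact two-sided permutation test over the libraries gave p = 0.1 (0.133 adjusted over the 4 ratios compared), and 0.1 is the smallest value that 3 against 3 libraries allow. The 4 ratios were chosen after the values were seen. HADHA and HADHB moved in opposite directions without overlap, so their ratio had to separate and this p adds no support. The ratios of CPT2 to SLC25A20, given above, and of ACADVL to ACADL (12.9 ± 1.43 in the knockout, 39.7 ± 3.43 in wild type) had the same p. For CPT2 to SLC25A20 it was likewise fixed by the opposite changes of the genes. For ACADVL to ACADL it was fixed by the 3.09-fold fall of ACADVL beside a log2 change of 0.00 for ACADL. Neither p adds support. The ratio of ACAA1 to ACAA2 was higher in mean in the knockout, with overlapping libraries (1.66 ± 0.23 against 1.42 ± 0.12, exact permutation p = 0.3). The calls of HADHA and HADHB passed in all 13 alternatives.

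**Figure D4:**
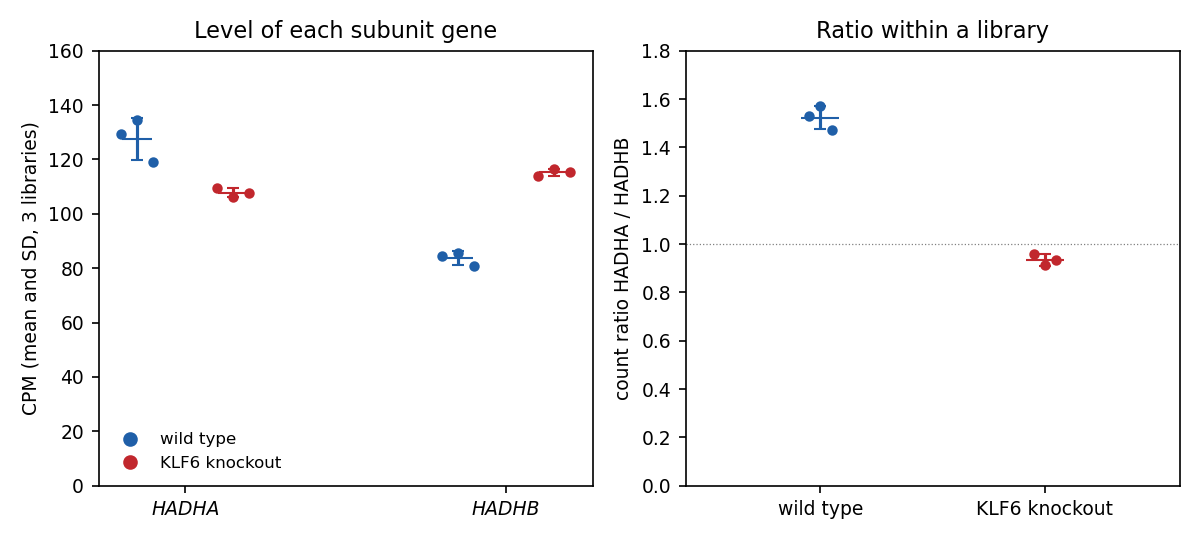
CPM of HADHA and HADHB by genotype (left, y axis) and the count ratio of HADHA to HADHB within a library (right, y axis). Points are libraries, with mean and SD of 3. The ratio is 1.47 to 1.57 in wild type and 0.91 to 0.96 in knockout.

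ECHS1, the short-chain enoyl-CoA hydratase, rose from 129 ± 4.56 to 157 ± 1.58 CPM (log2 0.29 ± 0.05, edgeR adjusted p = 1.77e-05). HADH, the dehydrogenase of short and medium chains, stood at 70.5 ± 2.64 CPM in the knockout and 63.0 ± 5.03 CPM in wild type, with overlapping libraries, and rose by 0.16 ± 0.06 on the log2 scale (edgeR adjusted p = 0.0246). That call was lost when knockout replicate 3 was left out (0.13, adjusted p = 0.110), when wild-type replicate 2 was left out (0.13, adjusted p = 0.0988) and when libraries were scaled by their totals alone (0.11, adjusted p = 0.103), within a range of 0.00321 to 0.110 over 13 alternatives. ACAA2, the mitochondrial thiolase of shorter chains, fell from 89.5 ± 0.94 to 60.1 ± 2.88 CPM (log2 -0.57 ± 0.05, edgeR adjusted p = 1.90e-08). Summed over these 5 genes, the level was 511 ± 5.08 CPM in the knockout and 493 ± 14.3 CPM in wild type.

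Chains with double bonds need extra enzymes that shift or remove the bond. ECI1, the mitochondrial enoyl-CoA isomerase, fell from 38.3 ± 1.93 to 28.9 ± 2.41 CPM (log2 -0.41 ± 0.08). ECI2 (chromosome 23, 50039718 to 50057712), an isomerase found in peroxisomes and mitochondria, was nearly unread in wild type, at 1, 5 and 3 counts, and had 42, 53 and 57 counts in knockout. In CPM this was 0.06, 0.27 and 0.16 against 2.41, 2.88 and 3.18. ECI2 rose 16.5-fold (log2 4.05 ± 0.39, edgeR adjusted p = 2.69e-08), and with the few wild-type counts the 95% interval of the fold ran from 9.41 to 29.0. In the knockout its mean of 2.82 CPM was still below the 28.9 CPM of ECI1. DECR1, the dienoyl-CoA reductase, was at 11.5, 11.8 and 12.7 CPM in the knockout and 22.6, 20.3 and 18.4 CPM in wild type. DECR1 fell 1.71-fold (log2 -0.77 ± 0.10, edgeR adjusted p = 1.17e-06).

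All 5 members grouped under peroxisomal oxidation fell, with a median log2 change of -0.77, while 37.6% of all genes tested fell. ECI2, which is also found in peroxisomes and rose, was grouped with the enzymes for double bonds and is not among them. ACOX3, an oxidase of branched chains, was at 26.4, 26.7 and 26.6 CPM in the knockout and 39.7, 44.6 and 47.6 CPM in wild type (log2 -0.73 ± 0.08, edgeR adjusted p = 8.39e-08). EHHADH and HSD17B4 are the bifunctional enzymes that follow the oxidase. EHHADH was at 7.69, 8.37 and 6.24 CPM against 12.8, 11.9 and 13.7 CPM in wild type (log2 -0.79 ± 0.12, edgeR adjusted p = 1.49e-05). HSD17B4 was at 36.0, 38.1 and 38.6 CPM against 65.4, 66.1 and 61.0 CPM in wild type (log2 -0.77 ± 0.06, edgeR adjusted p = 2.18e-09).

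SCP2, which encodes a thiolase of branched chains and a lipid carrier, was at 91.6, 97.3 and 94.4 CPM in the knockout and 182, 177 and 169 CPM in wild type. It fell 1.86-fold (log2 -0.90 ± 0.05, edgeR adjusted p = 9.17e-12). ACAA1, the thiolase of straight chains, fell from 127 ± 11.6 to 99.1 ± 8.56 CPM (log2 -0.36 ± 0.07, edgeR adjusted p = 2.30e-04). It overlaps DLEC1 by 584 bases on the other strand, which held 318 counts in all against 12289 for ACAA1. For all 5 genes every knockout library lay below every wild-type library. The genotypes did not overlap, in either direction, for 76.2% of all genes tested. Their summed level was 265 ± 5.12 CPM in the knockout and 424 ± 7.47 CPM in wild type, or 62.5% of the wild-type sum.

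Over the 25 enzyme and carrier genes measured, the summed level was 1321 ± 2.97 CPM in the knockout and 1941 ± 12.3 CPM in wild type, which is 68.1% of the wild-type sum. The fall of ACADVL alone equalled 50.3% of that net difference in CPM, in which genes that rose offset part of the falls. Without ACADVL the sum was 1172 ± 4.67 CPM in the knockout and 1480 ± 19.5 CPM in wild type, or 79.2% of it. Per kilobase, ACADVL ranked highest in wild type (183 ± 6.68 CPM per kilobase), ahead of SCP2 (67.0 ± 2.33), ECHS1 (61.4 ± 2.17) and CRAT (54.5 ± 1.26). HADHA, CPT2 and ACAA1 came next in wild type, and their libraries overlapped in CPM per kilobase. In knockout ECHS1 ranked highest (75.0 ± 0.75 CPM per kilobase), ahead of ACADVL (59.2 ± 2.59) and HADH (39.9 ± 1.49), while HADHA and SCP2 overlapped behind them. CPT1A ranked low in both genotypes, at 4.23 ± 0.19 CPM per kilobase in wild type and 3.99 ± 0.18 in knockout.

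On some chromosomes the median change of all tested genes was away from 0, so each member was also set beside its chromosome. DECR1, the only member on chromosome 14, changed about as much as the median of the 301 tested genes there (-0.77 against -0.82). CPT2, ACADM and SCP2 lie on chromosome 3, whose 739 tested genes had a median log2 change of -0.39, and they lay 0.50 to 0.67 below it. ECHS1 lies on chromosome 26, whose 265 tested genes had a median of 0.45, so its rise of 0.29 was smaller than that median. ACADSB, on the same chromosome, lay 2.22 above it. Of the 29 members, 20 lay below the median of their chromosome, and the median distance was -0.43. The part of these chromosome shifts in the members' changes was not tested.

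Of the other genes of the pathway, 79 were in the table and 72 were tested. They comprised further regulators, carnitine carriers, mitochondrial and peroxisomal enzymes, the propionyl-CoA route, ketone body genes and peroxisome assembly factors. Of these, 38 fell, 16 rose and 18 did not pass the test. The share called, 75.0%, was close to the background of 74.6%, while 52.8% fell, against 37.6% of all genes tested. The median log2 change was -0.19. Among peroxisomal enzymes and transporters 9 of 14 fell and 4 rose, in the propionyl-CoA route 5 of 6 fell and 0 rose, and among assembly factors 8 of 16 fell and 1 rose. Carnitine uptake and shuttle genes had 2 that rose and 0 that fell among 3, and ketone body genes 2 that rose and 2 that fell among 4.

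PPARG, the third receptor of the PPAR family and a driver of fat storage, had the largest fall. It had 6, 1 and 1 counts in the knockout and 29, 29 and 23 counts in wild type (log2 -3.26 ± 0.49, edgeR adjusted p = 8.74e-06). The log2 change of PPARG was -4.59 without knockout replicate 1, and its values without any other library lay between -3.36 and -2.86. PEX2, a peroxisome assembly factor, fell from 18.2 ± 1.5 to 6.76 ± 0.57 CPM (log2 -1.43 ± 0.11). PEX2 lies on chromosome 14 with DECR1. PCCA, a subunit of propionyl-CoA carboxylase, fell from 48.7 ± 1.41 to 21.5 ± 1.42 CPM (log2 -1.18 ± 0.07). It lies on chromosome 12, whose 230 tested genes had a median log2 change of -0.43.

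In the other direction, AMACR, a racemase that prepares branched chains for peroxisomal oxidation, rose from 18.8 ± 1.21 to 43.0 ± 1.87 CPM (log2 1.19 ± 0.08). It lies on chromosome 20, whose 218 tested genes had a median log2 change of 0.48. CPT1C, the brain-type transferase, rose from 2.83 ± 0.07 to 5.21 ± 0.67 CPM (log2 0.88 ± 0.17). Its chromosome, 18, had a median log2 change of 0.32 over 771 tested genes. HSD17B10, a mitochondrial dehydrogenase of branched-chain breakdown, rose from 40.1 ± 3.62 to 68.9 ± 0.77 CPM (log2 0.78 ± 0.07). Some genes did not pass the filter on low counts. Among them PRKAA2, a catalytic subunit of AMP-activated protein kinase, ABCD2, a peroxisomal transporter, and ECHDC2 had 0 counts in all 6 libraries, which allows a mean level of up to 0.0277 CPM each, counting error only. The coactivator gene PPARGC1A had 1 count in all, and SLC22A4 and ECH1 had at most 14 counts in any library.

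**Figure D5:**
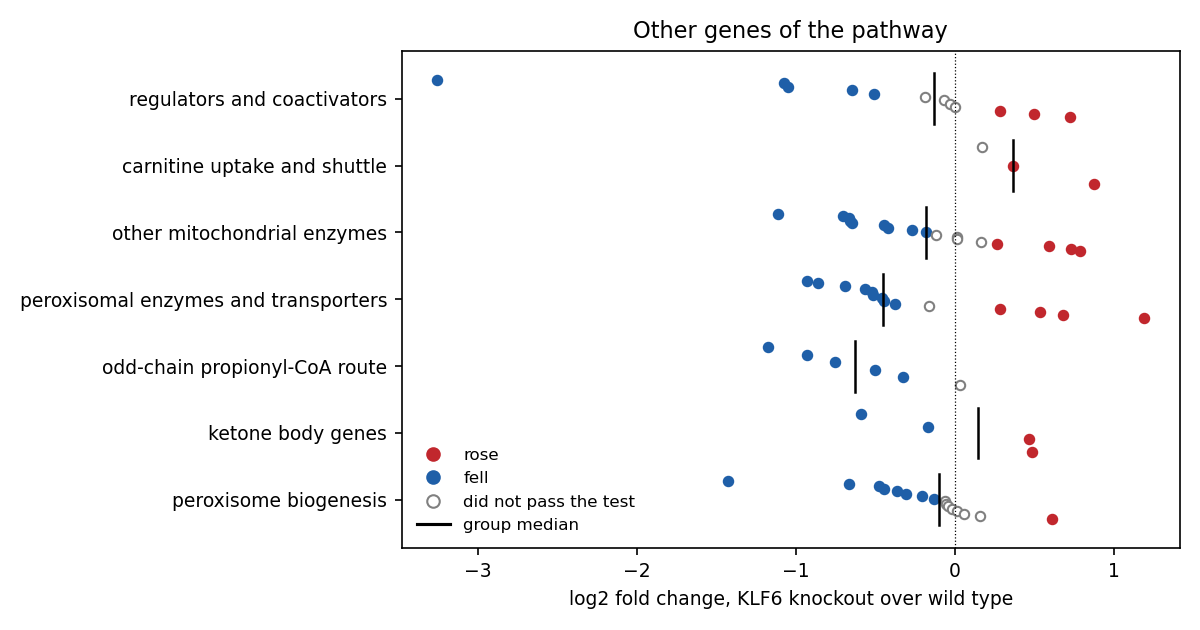
Log2 change, knockout over wild type (x axis), for the 72 tested other genes of the pathway, by group (y axis). Each point is a gene and the black line is the group median. PPARG lies farthest to the left, and all but 1 of the 6 propionyl-CoA genes fell.

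The authors' deposited table lists 9532 genes, among them 24 of the 29 members, 17 lower and 7 higher in knockout. In the authors' deposited table ACADVL has a log2 fold change of -1.62, ACADSB 2.69 and ECI2 4.12. All 24 have the same sign there as in the fit used here, which rests on the same counts. The largest distance between the values is 0.07 on the log2 scale. CPT1B, called here, is not listed in the authors' deposited table.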

How the data were processed

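The authors deposited raw counts per gene for the 6 libraries. Their second deposited table compares the genotypes and holds a normalized signal per library, log2 fold changes and p-values. The submitters' processing notes name HISAT2 (2.0.5) and featureCounts (1.5.0-p3). Their settings, the genome build, the annotation and the use of strand were not given in the sources used here. Per the labels' protocols, libraries were made from DNase-treated total RNA with an Ion Total RNA-Seq kit. Gene symbols, coordinates and lengths are those of the count table.

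Counts were tested with edgeR 4.0.16 in R 4.3.3 (TMM scaling, filterByExpr at its defaults of 10 counts and 15 in total, robust quasi-likelihood fit, Benjamini-Hochberg adjustment at 0.05). The SE was computed as the log2 change divided by the square root of its F statistic, and 95% intervals use it. The fit was also run on simulated data in which few genes were changed, none of them with low counts. That setting does not cover rare members or data in which most genes are called. DESeq2 1.42.0 and limma-voom (limma 3.58.1), other scalings and filters, a replicate block and leaving out each library were alternatives.

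The members and lists were chosen with earlier results of these data known, so no test was made over a list. Values in every library were given for members called with at least a 1.5-fold change, for PPARA and CPT1A, and as counts where rare. Of the other pathway genes, the 3 with the largest called change per direction were named. The 4 ratios were chosen after the values were seen.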

Additional observations from a re-analysis of the deposited data

How the results depend on the processing

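Over 13 alternatives with a test, 23 of the 29 members kept their direction and their side of the threshold. The exceptions were CPT1B, HADH, ETFA and PPARD, whose calls are given with their values above, and ACADL and PPARA, which were never called and changed sign near 0. ACADL (main value 0.00) was -0.0017 by limma-voom, -0.049 when libraries were scaled by their totals alone, -0.0015 with the replicate block, and between -0.053 and 0.077 with a library left out. PPARA (0.09) lay between -0.039 and 0.26 with a library left out. PDK4 did not pass the filter of at least 1 CPM in 3 libraries and has 12 of these alternatives. With the median of each chromosome taken out, 5 members changed sign: PPARA (-0.010), CPT1A (0.18), ACADL (-0.026), ECHS1 (-0.16) and DECR1 (0.050). The members' median was -0.43 in that setting and lay between -0.43 and -0.35 with a library left out. The number of members called stayed between 22 and 26, and the number with at least a 2-fold change between 5 and 7. Without wild-type replicate 3, the library that stood apart, 25 members were called (18 fell and 7 rose).

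The replicate numbers gave no clear sign of pairing. Deviations of same-numbered libraries from their group means correlated at -0.04, 0.07 and -0.02, and only the libraries numbered 2 correlated best with each other. With 3 libraries per genotype this check cannot exclude pairing. With the replicate block, 25 members were called, as without it, and 9894 genes in all, against 9991. Depth limits ECI2, PDK4, CPT1B and PPARG, which had under 60 counts in each library. It also limits ACADSB, with 11, 9 and 12 counts in wild type, and PPARA, with 39 to 61 counts per library.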
